A study of Mus musculus with 10 samples.

Results

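Retinoic acid is made from vitamin A inside cells and acts on genes in the nucleus. Retinol arrives on the carrier retinol binding protein 4 (Rbp4), is oxidized first to retinaldehyde and then, by the retinaldehyde dehydrogenases Aldh1a1, Aldh1a2 and Aldh1a3, to retinoic acid. Crabp1 binds retinoic acid in the cytoplasm, Rlbp1 binds retinaldehyde and is best known from the retina, Cyp26b1 breaks retinoic acid down, and Rarb is one of its nuclear receptors and a classical target of the pathway. In the developing inner ear, synthesis and breakdown of retinoic acid are known to pattern regions of the vestibular sensory epithelium.

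These 8 genes were taken by symbol from a table of 32285 genes, and each symbol matched 1 row. Their levels were measured in single cells of the cochlea and the vestibule of wild-type CBA/J mice labelled as 22 months old, with several mice pooled per replicate. CBA/J mice lose inner ear function late in life. No young animals were measured in this series, so no change with age can be read from it. Of 5 libraries per organ, replicate 2 held the cells of replicate 1 again (1313 of 1313 barcodes in the cochlea and 1633 of 1641 in the vestibule), so that replicates 1, 3, 4 and 5 were used and n = 4 per organ. The series does not say that the same mice gave both organs.

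The 8 libraries held 2738036 to 26974948 unique molecular identifiers (UMIs, counts of captured RNA molecules), replicate 3 being the largest in cells for both organs. After filtering, 7272 cochlear and 10424 vestibular cells remained. Cells were grouped without using any retinoid gene and named from marker genes, and every name means only that a group resembled that class. A group without enough markers is called by its 3 leading genes. In all, 39 groups (18 cochlear, 21 vestibular) had at least 10 cells in at least 3 libraries. Levels are in CPM, a gene's UMIs summed per library and group and scaled to a total of 1000000 UMIs, given as mean ± SD over libraries. Vestibular hair cell subgroups were named type I or type II from the markers Adam11 and Sox2, so these 2 had to separate them. The type I marker Adam11 was seen in 86.2% to 100% of the cells of the type I subgroups and in 7.83% and 1.59% of those of the 2 type II subgroups. The type II marker Sox2 was seen in at most 6% and in 75.6% and 92.1%. A second type I marker, Spp1, did not separate the types, at 99.6% or more against 80.2% and 88.9%.

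All positions are on mouse build GRCm38 (mm10) with the GENCODE vM21 gene models. Rbp4 lies on chromosome 19 from 38116629 to 38125281 on the minus strand. Rlbp1 lies on chromosome 7 from 79374870 to 79387048 on the minus strand, and Crabp1 on chromosome 9 from 54764748 to 54773110 on the plus strand. Aldh1a1 lies on chromosome 19 from 20492715 to 20643465, Aldh1a2 on chromosome 9 from 71215789 to 71296243, both on the plus strand, and Aldh1a3 on chromosome 7 from 66390890 to 66427517 on the minus strand. Cyp26b1 lies on chromosome 6 from 84571414 to 84593908 and Rarb on chromosome 14 from 16430839 to 16819156, both on the minus strand. Rarb is overlapped on the other strand by Top2b and Gm48162, Aldh1a1 by C730002L08Rik and Gm6684, and Aldh1a2 by Gm48124.

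Retinoic acid receptors bind pairs of a 6-base half-site, classically 5 bases apart. The half-site AGGTCA, its variant GGGTCA, the form AGTTCA and also GGTTCA were searched on both strands as direct repeats 1, 2 or 5 bases apart in 300-base RefSeq promoters. A repeat 5 bases apart was found in 32 of 32851 promoters (0.0974%), 1 base apart in 73 (0.222%) and 2 bases apart in 88 (0.268%). Promoters were present for 7 of the 8 genes, Aldh1a3 being the one without an entry, and Rarb was the one of these with a match. On the wider retinoid list, Cyp26a1 also held a repeat 5 bases apart. The Rarb stretch is shown because Rarb is the receptor with the clearest pattern below. It covers the 150 bases before a RefSeq start on the minus strand (GRCm38.p6, chr14:16575477-16575626). That start lies inside the gene model given above, which on the minus strand begins at 16819156. Which start the counted RNA used was not measured. The 2 half-sites are in capitals, at 53 to 37 bases before the RefSeq start.
Rarb: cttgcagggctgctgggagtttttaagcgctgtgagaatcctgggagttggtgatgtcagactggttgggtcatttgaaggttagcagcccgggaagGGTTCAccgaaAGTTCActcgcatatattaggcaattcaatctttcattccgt
The match is a description of the letters in this window, and binding was not measured.

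The 8 genes differed in where they were highest. Rbp4 was highest in vestibular connective tissue groups, Rlbp1 in vestibular supporting cells, Aldh1a1 and Aldh1a2 in cochlear fibroblasts, Aldh1a3 in cochlear neurons, and Rarb in type I vestibular hair cells. Among those of the 39 groups with at least 20 Cyp26b1 UMIs, Cyp26b1 had its highest mean in type I hair cells too. Crabp1 was scarce, with 31 UMIs in the cochlea and 80 in the vestibule.

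**Figure D1:**
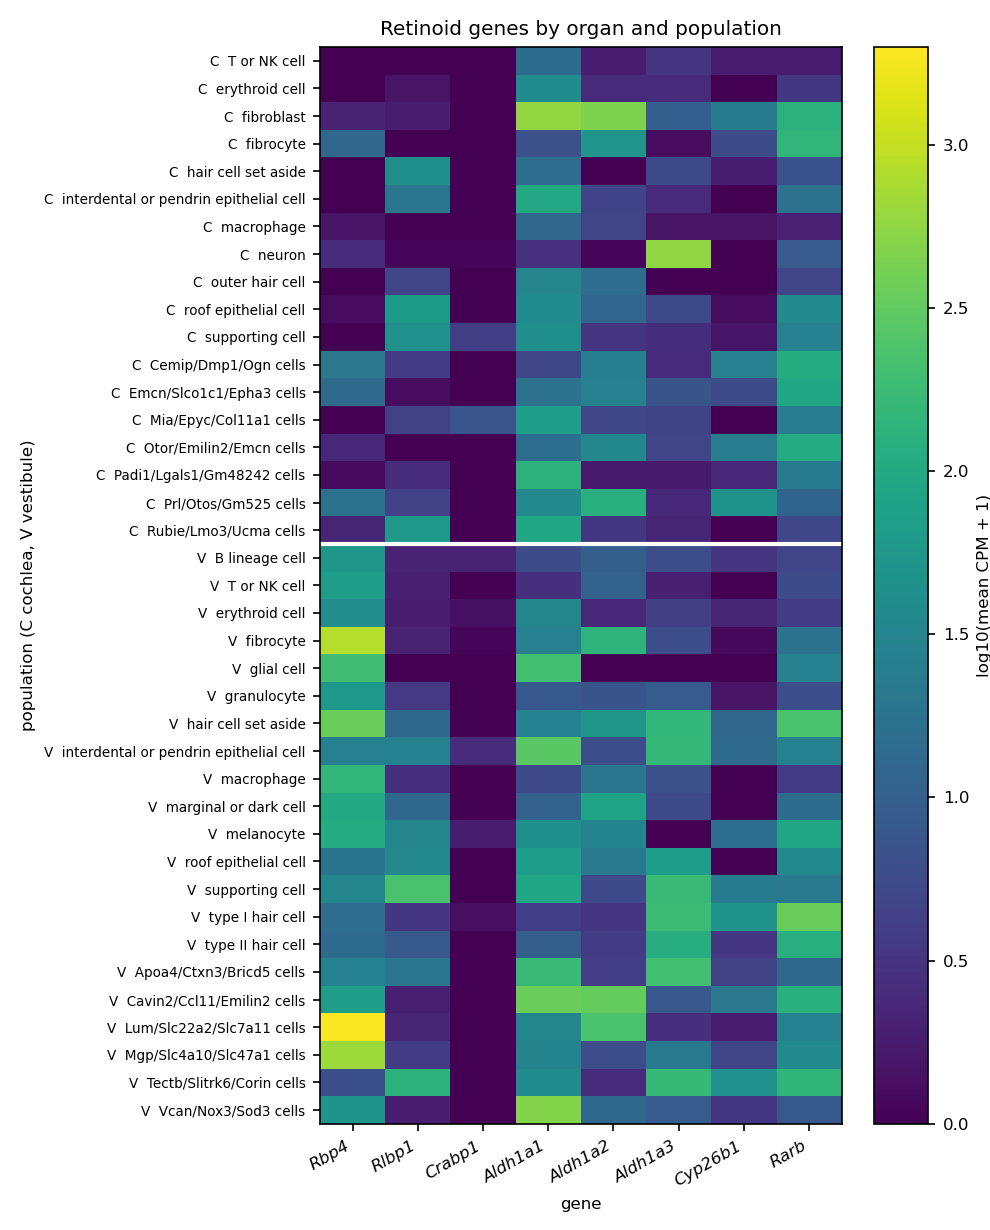
Heat map of the mean level of each of the 8 genes (columns) in 18 cochlear (C) and 21 vestibular (V) groups (rows), coloured by log10(mean CPM + 1). The brightest cell of the Rbp4 column is in the Lum/Slc22a2/Slc7a11 cells, of the Aldh1a1 and Aldh1a2 columns in cochlear fibroblasts, of the Aldh1a3 column in cochlear neurons and of the Rarb column in type I hair cells, while the Crabp1 column is the darkest.

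Rbp4, the retinol carrier, was found almost wholly in the vestibule, with 11705 UMIs there against 153 in the cochlea. Vestibular cells led by Lum, Slc22a2 and Slc7a11 (1436 cells) held it at 1624, 1742, 2366 and 1853 CPM in replicates 1, 3, 4 and 5, and on average 58.3% of the vestibular Rbp4 UMIs. Vestibular fibrocytes followed at 764.7, 753.4, 964.6 and 967 CPM. Fibrocytes are the connective tissue cells behind the epithelium, and the ranges of these 2 groups did not overlap. Within the fibrocytes, Rbp4 was at 1008 ± 190 CPM in those led by Otor, 944 ± 130 in those led by Otos and 594 ± 112 in those led by Gm525 (SD, n = 4).

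Rbp4 UMIs were also found at lower levels across the blood and sensory cells of the vestibule. Macrophages held 0, 81.9, 417.7 and 88.6 CPM, erythroid cells 60.4, 40.4 and 21.9 CPM in replicates 3, 4 and 5, and type I hair cells 1.55 to 27.4 CPM over 4 libraries. The fibrocytes stood above the macrophages in each of the 4 libraries. The part of free RNA in these levels was not tested.

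**Figure D2:**
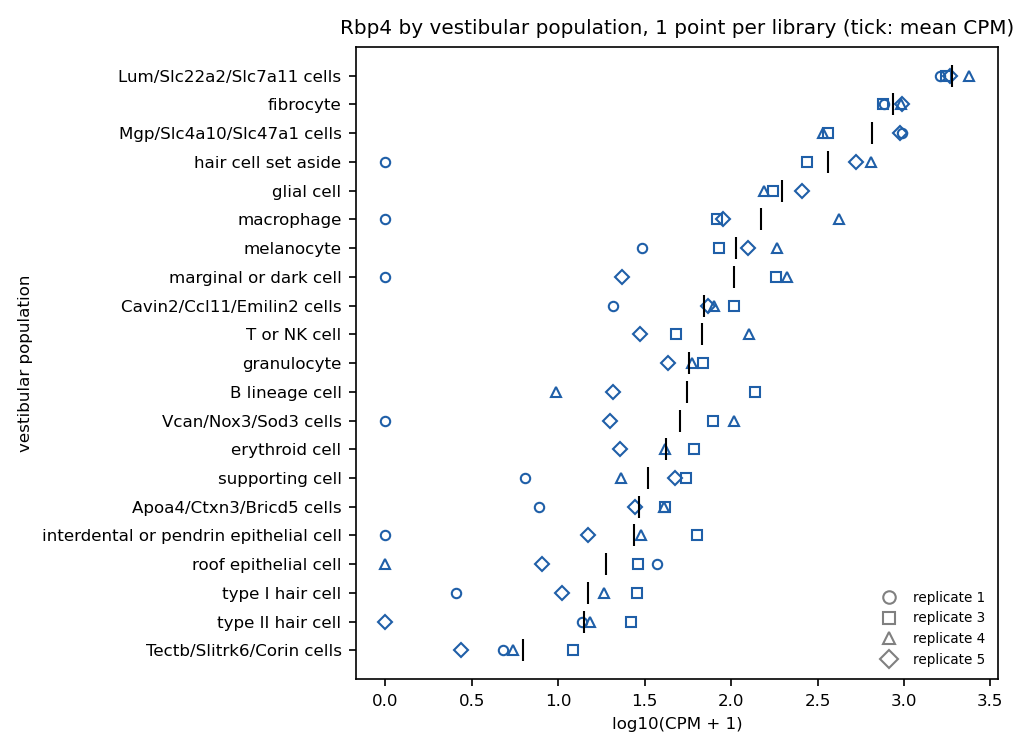
Rbp4 in each vestibular group (rows, in order of mean) as log10(CPM + 1), with 1 symbol per library and a tick at the mean CPM. The Lum/Slc22a2/Slc7a11 cells and the fibrocytes lie at 753.4 CPM or more in every library, while macrophages spread from 0 to 417.7 CPM.

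Rlbp1, the retinaldehyde binding protein, was highest in vestibular supporting cells, the non-sensory cells around hair cells, at 234.1, 235.8, 235.1 and 185.5 CPM. Replicate 5 was lowest, and no library of the next group overlapped these values. That next group, vestibular cells led by Tectb, Slitrk6 and Corin (274 cells), held 133.6 ± 15.9 CPM. Cochlear supporting cells held 46.2 ± 9.37 CPM, unevenly among their subgroups. Those led by Dgkb held 110 ± 35.4 CPM, those led by Plbd1 47.3 ± 27.8 and those led by Pcdh17 0.54 ± 1.07 (SD, n = 4 each). In type I hair cells Rlbp1 was at 2.34 ± 1.07 CPM.

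Crabp1, the retinoic acid binding protein, had a mean under 10 CPM in each of the 39 groups. Cochlear supporting cells held 27 of the 31 cochlear UMIs, at 3.04, 7.26, 1.86 and 0 CPM. Of these, 19 UMIs were in the subgroup led by Plbd1, at 21.8 ± 18.6 CPM. The spread was as large as the level, and vestibular supporting cells held 0 UMIs, which allows up to 1.57 CPM.

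Aldh1a1 was highest in cochlear fibroblasts, at 762.5, 485.5, 445.4 and 612.4 CPM, and the vestibular cells led by Vcan, Nox3 and Sod3 overlapped them at 491 ± 117 CPM (n = 4). Among epithelial groups, vestibular interdental or pendrin epithelial cells held 281 ± 146 CPM and vestibular supporting cells 86.9 ± 10.9. In cochlear supporting cells Aldh1a1 was at 70.2 ± 25.8 CPM in those led by Pcdh17 and 13.6 ± 6.09 in those led by Dgkb. Between these subgroups that is the reverse of the order of Rlbp1. Those led by Plbd1 held 0 UMIs. Erythroid cells held 31.3 ± 3.76 CPM in the vestibule and 39.7 ± 32.1 in the cochlea (n = 3 each), while vestibular T or NK cells held 1.86 ± 3.21 (n = 3).

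Aldh1a2 was highest in the same cochlear fibroblasts, at 653.6, 376.5, 432.7 and 367.4 CPM. Vestibular cells led by Cavin2, Ccl11 and Emilin2 held 326 ± 63.3 CPM and the cells led by Lum 230 ± 21.5, and the ranges of these 2 groups did not overlap. Vestibular fibrocytes held 143.6, 105.1, 112.8 and 197.4 CPM, below every library of the cells led by Lum. In type I hair cells Aldh1a1 was at 3.13 ± 1.84 CPM and Aldh1a2 at 2.17 ± 1.86. Named cochlear hair cells held 8 and 2 UMIs of them, at 23.2 ± 33.1 and 9.42 ± 18.8 CPM.

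Aldh1a3 was highest in cochlear neurons, at 556.6, 476, 543.8 and 706.2 CPM, and these 300 cells held on average 93.1% of the cochlear Aldh1a3 UMIs. A UMI was seen in 72.7% of the neurons (95% exact interval 67.2 to 77.6, counting error only), against 0.517% of cochlear macrophages. Median depth was 8460 UMIs in neurons and 2401 in macrophages. With every cell thinned to 1000 UMIs, the shares were 31.3% and 0%. The next group was far lower: vestibular cells led by Apoa4, Ctxn3 and Bricd5 held 200 ± 62.6 CPM, and they overlapped type I hair cells, vestibular supporting cells and vestibular interdental or pendrin epithelial cells.

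Rarb, the receptor, was at 348.9, 299.6, 330.8 and 365.6 CPM in type I vestibular hair cells, from 1946 UMIs, and no library of another group reached this range. Type I cells are flask-shaped hair cells enclosed by a nerve calyx, whereas type II cells are cylindrical with bouton endings. The vestibular hair cells set aside for markers of other classes followed at 227.5 ± 45.2 CPM. Cochlear fibrocytes came next at 198.8, 114.2, 103.1 and 169.6 CPM, and they overlapped the cells led by Tectb, cochlear fibroblasts (131.6 ± 29.9) and type II hair cells (147.1, 127.8, 86.1 and 114.6). A Rarb UMI was seen in 64% of type I cells, 37.9% of type II cells and 1.36% of vestibular macrophages, with median depths of 3946, 4742 and 2765 UMIs. After thinning, these shares were 26.7%, 11.8% and 0.271%. Cochlear cells led by Otor, Emilin2 and Emcn, with a median depth of 11070 UMIs, had a Rarb UMI in 64.4% of cells and in 10.0% after thinning. They held on average 26.8% of the cochlear Rarb UMIs.

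Cyp26b1, the breakdown enzyme, was at 57.4, 43.4, 35.4 and 50.3 CPM in type I hair cells, from 267 UMIs. In type II hair cells it was at 6.40, 0, 0 and 3.10 CPM, from 2 UMIs. A mean of 48.9 CPM in cochlear cells led by Prl, Otos and Gm525 rested on 10 UMIs and on replicate 1 (175.9, 19.6, 0 and 0 CPM). On average 39.9% of the cochlear Cyp26b1 UMIs (0% to 94.7% over libraries) were in cochlear cells led by Otor, Emilin2 and Emcn. The cells led by Tectb held 45.3 ± 15.5 CPM and overlapped the type I cells. Vestibular macrophages held 0 UMIs, which allows up to 1.88 CPM. Of the other members of its family, Cyp26a1 had 29 cochlear and 6 vestibular UMIs, and Cyp26c1 had none in either organ.

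Type I hair cells were compared with type II hair cells of the same libraries, to ask whether the retinoid genes separate the 2 vestibular types. Of all 8038 genes tested, 17.4% passed, 7.96% higher and 9.44% lower in type I. Rarb, Aldh1a3 and Cyp26b1 passed the filter on low counts. Rarb differed by a log2 fold change of 1.57 (SE 0.17, edgeR adjusted p = 1.52e-07). Cyp26b1, with 2 UMIs in type II cells, passed the filter only through type I, no type II library reaching its minimum level, so no p is given for it. Its ratio of pooled levels was 31.7, with a 95% counting interval of 8.70 to 263. The ranges of the 4 libraries did not overlap for either gene. Aldh1a3 differed by 0.86 (SE 0.21, edgeR adjusted p = 0.00392), from 237.2, 175.7, 153.7 and 168.1 CPM in type I to 185.5, 107, 71.8 and 80.5 CPM in type II cells. Its ranges overlapped, although type I was higher within each library, and without replicate 5 the adjusted p was 0.051. These p-values are from the fit that does not pair the types by library. With the library as a block, the edgeR adjusted p was 1.075e-06 for Aldh1a3 and 3.614e-14 for Rarb.

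The levels of Rarb and Cyp26b1 were also read in subgroups of the type I cells. Rarb was at 369 ± 69.6 CPM in those led by Ocm, 330 ± 58.6 in those led by S100a6 and 321 ± 31.7 in those led by Mgat4c. Ocm (oncomodulin) is used as a marker of type I cells of the striola, the central zone of the otolith organs. It was seen in 73.7% of the cells led by Ocm, 10.7% of those led by S100a6 and 1.03% of those led by Mgat4c. Type II cells had it too, 58.7% of those led by Slc8a1 and 15.2% of those led by Gcnt1. The place of the cells in the organ was not measured. Cyp26b1 was at 7.63, 8.26, 4.43 and 24.6 CPM in the cells led by Ocm, against 70.5, 50.7, 51.3 and 59.5 CPM in those led by Mgat4c. These 2 ranges did not overlap, while those for Rarb did. The cells led by S100a6 lay between for Cyp26b1, at 38.9 ± 8.71 CPM, and type II cells led by Gcnt1 held 0 UMIs, which allows up to 2.91 CPM. A shallower subgroup led by Gm26917 (240 cells, median 1564 UMIs) spread widely, from 45.3 to 393 CPM for Rarb and from 0 to 126 for Cyp26b1, replicate 4 with 16 cells being lowest for both. After thinning, its share of cells with a Cyp26b1 UMI was 8.33%, against 3.94% in the cells led by Mgat4c, and before thinning 9.58% against 16.3%. These subgroups were formed from the same cells, and the differences among them were not tested.

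**Figure D3:**
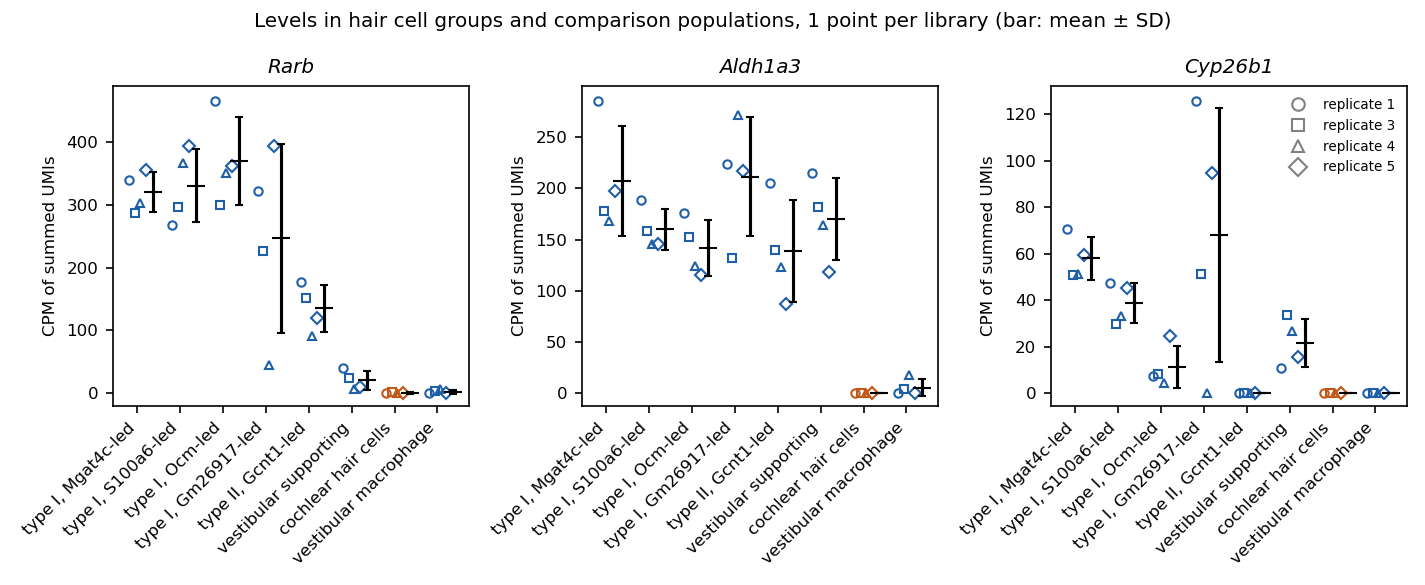
CPM of Rarb, Aldh1a3 and Cyp26b1 (panels) in subgroups of vestibular hair cells, vestibular supporting cells, named cochlear hair cells and vestibular macrophages, with 1 symbol per library and a bar for the mean ± SD. The subgroups of 63 and 50 cells are not drawn. Rarb is at 267.7 CPM or more in every library of the type I cells led by Mgat4c, S100a6 and Ocm, the cells led by Gm26917 spread from 45.3 to 393 CPM, Cyp26b1 is lower in the type I cells led by Ocm than in those led by Mgat4c, and cochlear hair cells lie at or near 0 for all 3 genes.

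Of 44 other genes of the retinoid list, 18 were tested between type I and type II cells, 3 were higher in type I and 5 lower. Dhrs3, which reduces retinaldehyde back to retinol, was at 212.8 ± 84.7 CPM in type I and 47.5 ± 45.3 in type II (log2 fold change 2.58). Rxra, the partner receptor of Rarb, differed by 1.91 and Stra6, the receptor for retinol-loaded Rbp4, by 1.42. Lower in type I were Dhrs4 (-1.81), Rdh10 (-1.79), which makes retinaldehyde, Fabp5 (-1.57), Meis1 (-1.49) and Nrip1 (-1.19). Dhrs4 passed the filter through type II alone, and Meis1 had 1 type I library at its minimum level.

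**Figure D4:**
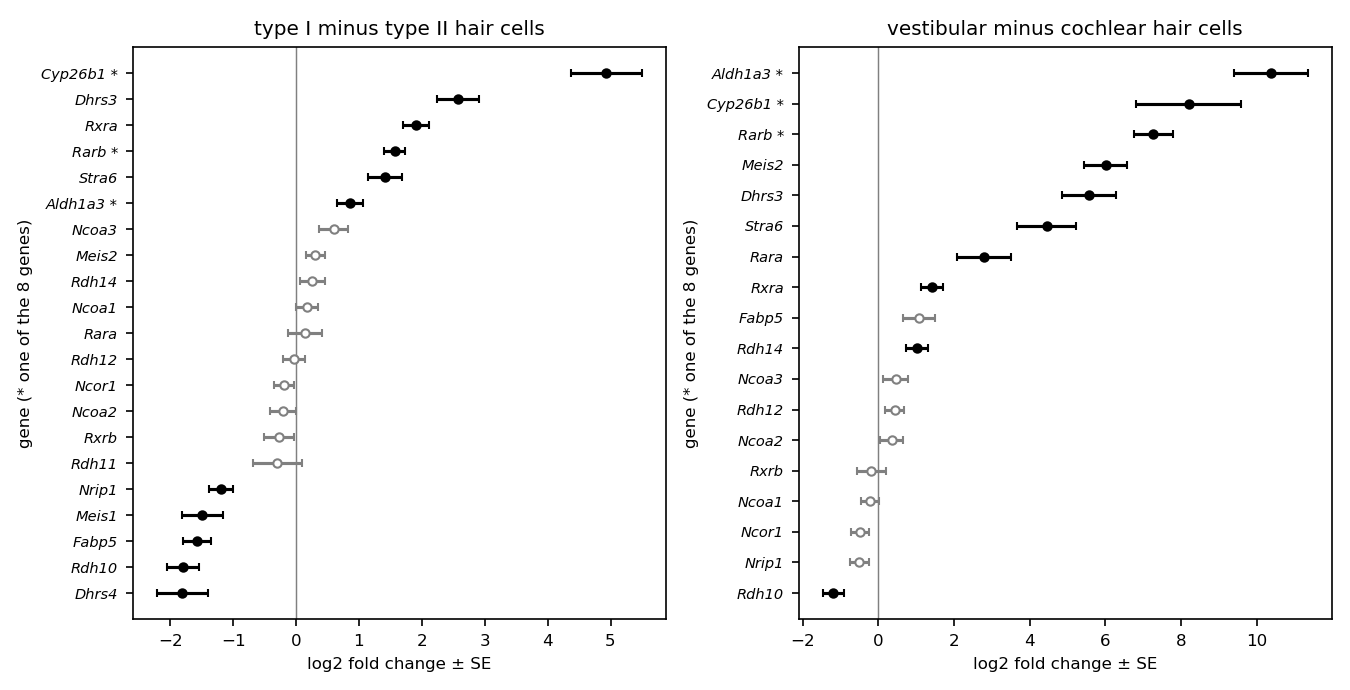
Fitted log2 fold change ± SE of the retinoid genes tested, in type I minus type II hair cells (left) and vestibular minus cochlear hair cells (right), with filled symbols for edgeR adjusted p under 0.05 and stars on the 8 genes. Cyp26b1 has the largest value on the left at 4.93, and on the right the values of Aldh1a3 and Cyp26b1 depend on the prior count because cochlear hair cells held 0 UMIs. Cyp26b1 and Dhrs4 on the left and Rarb, Aldh1a3 and Cyp26b1 on the right passed the filter through a single side. Their direction was set by the filter, so their filled symbols are not read as results. Meis1 on the left had 1 type I library at the minimum of the filter, and Meis2, Dhrs3 and Stra6 on the right 1 cochlear library each. The direction of these was largely set by the filter, and their filled symbols are not read as results either.

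The study compared how vestibular and cochlear hair cells changed with age. Here, without young animals, the levels in the 2 organs were compared with each other within each class found in both. There were 8 such classes, and 13 of the 64 gene-by-class comparisons could be tested. The named hair cells were 111 cochlear cells, outer and inner, and 1780 vestibular cells, so that hair cell type and organ cannot be told apart, and the depths differed (53057 to 354848 against 801323 to 3667444 UMIs per library). In these, 25.9% of 7515 genes passed, 15.8% higher and 10.1% lower in the vestibule.

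In hair cells, Rarb, Aldh1a3 and Cyp26b1 passed the filter on low counts through the vestibular side alone, so their direction was set by the filter, and they are given as levels without a p. Aldh1a3 was at 169 ± 39.8 CPM there and had 0 UMIs in the cochlea, which over the group allows up to 5.12 CPM, so it was at least 31.6-fold higher over the pooled libraries. Cyp26b1 was at 37.9 ± 7.59 CPM against 0 UMIs, at least 7.05-fold higher. Rarb was at 293 ± 19.2 CPM against 1 UMI, a ratio of 166 with a 95% counting interval of 29.8 to 6573. Of the hair cells, 119 cochlear and 224 vestibular ones had been set aside. The vestibular ones and 84 of the cochlear ones held markers of other classes, and 35 cochlear ones, led by Cga, met neither the inner nor the outer hair cell rule. With the set-aside hair cells kept in both organs, the log2 fold changes were 5.99 for Rarb, 5.24 for Aldh1a3 and 4.91 for Cyp26b1.

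Of 15 other retinoid genes tested in hair cells, 6 were higher in the vestibule and 1 lower. Meis2, a transcription factor that responds to retinoic acid, was at 362 ± 33.0 CPM against 3 UMIs in the cochlea, Dhrs3 at 181 ± 77.2 against 2 UMIs and Stra6 at 41.9 ± 3.73 against 1 UMI. Their ratios had 95% counting intervals of 24.4 to 346, 13.4 to 400 and 4.34 to 966. Each of these genes had 1 cochlear library at the minimum level of the filter. Their direction was therefore largely set by the filter, and their calls are not read as results. The receptors Rara (2.80) and Rxra (1.42) and the reductase Rdh14 (1.02) were also higher on the log2 scale. Rdh10 was lower by a log2 fold change of -1.20. Without replicate 3, the adjusted p was 0.191 for Rara, 0.136 for Rdh10 and 0.101 for Rdh14.

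In supporting cells, 29.4% of 8097 genes passed (16.1% higher and 13.3% lower in the vestibule), and 4 of the 8 genes could be tested. Cochlear supporting cells were led by Pcdh17, Dgkb or Plbd1 and vestibular ones by Otol1 or Hhla1, so supporting cell subgroup and organ cannot be told apart. The cochlear subgroups differed widely in Rlbp1 and Aldh1a1, as given above. Cells led by Pcdh17 weigh more in the cochlear sums, with a median of 6995 UMIs against 2156 (Dgkb) and 2101 (Plbd1). Aldh1a3 was at 215, 182.1, 164.1 and 118.5 CPM in the vestibule against 1.72 ± 2.53 in the cochlea (log2 fold change 5.73, SE 0.41), and no p is given because no cochlear library reached the minimum level of the filter. Rlbp1 was at 223 ± 24.8 against 46.2 ± 9.37 CPM (2.15, SE 0.21, edgeR adjusted p = 7.70e-08). Aldh1a1 was at 86.9 ± 10.9 against 43.1 ± 16.4 CPM (0.92, SE 0.25, edgeR adjusted p = 0.00817). The ranges did not overlap for these 3 genes, and for Aldh1a1 the adjusted p was 0.089 without replicate 3 and 0.0688 without replicate 5. Rarb was at 20.6 ± 15.5 against 28.3 ± 3.77 CPM and did not pass (-0.53, SE 0.35, edgeR adjusted p = 0.279). Cyp26b1 was not tested, with 49 UMIs against 3.

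The wider list moved in both directions in supporting cells, with 4 of 17 genes higher in the vestibule and 3 lower. Higher were Meis2 (8.31), Rdh10 (3.03), Dhrs3 (1.78) and Dgat1 (0.88). Lower were Rbp7, with 2 vestibular UMIs against 963 and a cochlear over vestibular ratio of 157 (95% counting interval 43.2 to 1295), Crabp2 (-5.25) and Rdh5 (-2.39), with Crabp2, a second retinoic acid binding protein, at 2.35 against 95.9 CPM. The filter was passed through 1 organ alone by Meis2, Dgat1, Rbp7, Crabp2 and Rdh5. Rdh10 and Dhrs3 each had 1 cochlear library at its minimum level. Dgat1 lost its call under DESeq2 (adjusted p = 0.0939), without a filter on low counts (0.12) and without replicates 1, 4 or 5 (0.0587 to 0.123).

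In fibrocytes, 30.6% of 5287 genes passed (14.5% higher and 16% lower in the vestibule), and Rbp4, Aldh1a2 and Rarb could be tested. Cochlear fibrocytes were led by Fxyd2 and vestibular ones by Otor, Otos or Gm525, so fibrocyte subgroup and organ cannot be told apart. Cochlear cells led by Prl, Otos and Gm525 (230 cells) were left unnamed, and at a clustering resolution of 0.5 they fell among the fibrocytes. After thinning to 1000 UMIs, 1.30% of these had a Rarb UMI, against 9.43% of those led by Fxyd2. For Aldh1a2 these shares were 12.2% and 3.77%, and 9.96% in vestibular fibrocytes. Rbp4 was at 862 ± 119 CPM in the vestibule against 0, 42.4, 0 and 2.57 CPM in the cochlea (log2 fold change 5.93, SE 0.54). Only 1 cochlear library reached the minimum level of the filter, so its direction was largely set by the filter and no p is given. Rbp4 in macrophages was at 147 ± 185 CPM in the vestibule and 0.512 ± 1.02 in the cochlea, and the part of free RNA in the fibrocyte difference was not tested. Aldh1a2 was at 139.7 ± 41.9 against 50.9 ± 6.77 CPM (1.68, SE 0.26, edgeR adjusted p = 1.23e-05). Rarb ran the other way, at 16.8 ± 5.79 CPM in the vestibule against 146 ± 45.4 in the cochlea (-2.70, SE 0.29). It is also given without a p, because only 1 vestibular library reached the minimum level. The ranges of the libraries did not overlap for any of the 3 genes.

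In the remaining classes few of the 8 genes could be tested. In interdental or pendrin epithelial cells, 22% of 1416 genes passed (12.6% higher and 9.32% lower in the vestibule). Aldh1a1 was at 489.8, 266.2, 159.4 and 209.6 CPM in the vestibule and 211.5, 76.5, 76.6 and 22.4 in the cochlea (log2 fold change 2.08, SE 0.41), with overlapping ranges. No p is given for it, because only 1 cochlear library reached the minimum level of the filter. Aldh1a3 there was below the filter, with 135 UMIs against 2. In erythroid cells, 6.52% of 3663 genes passed (1.67% higher and 4.86% lower in the vestibule). Rbp4 there was at 40.9 ± 19.2 CPM against 0 UMIs, at least 11.8-fold higher. It is given without a p because no cochlear library reached the minimum level, and Aldh1a1 did not pass (edgeR adjusted p = 0.485). None of the 8 genes was tested in macrophages (0.75% of 2665 genes passed, 0.338% higher and 0.413% lower), roof epithelial cells (4.97% of 2775, 2.49% in either direction) or T or NK cells (0% of 1424 by edgeR, 50 genes at an unadjusted p under 0.05, and 0 by DESeq2).

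Of the other retinoid genes, 3 of 12 tested were lower in vestibular fibrocytes, namely Nrip1 (-2.25), Dhrs3 (-1.39) and Dhrs4 (-1.02). The last had 1 vestibular library at the minimum level of the filter, and an adjusted p of 0.119, 0.141 and 0.0683 without replicates 3, 4 and 5. In interdental or pendrin epithelial cells 2 of 3 were higher, Meis2 (485 UMIs against 1) and Rarres2 (3.82), both through the vestibule alone at the filter. In roof epithelial cells Rarres2 (2.94) was higher and Meis1 (-2.80) and Dhrs3 (-1.14) lower among 8 tested, and Dhrs3 had an adjusted p of 0.171, 0.0716 and 0.0973 without replicates 3, 4 and 5. Meis1 there passed the filter through the cochlea alone. None of the 5, 6 and 2 genes tested in macrophages, erythroid cells and T or NK cells passed.

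**Figure D5:**
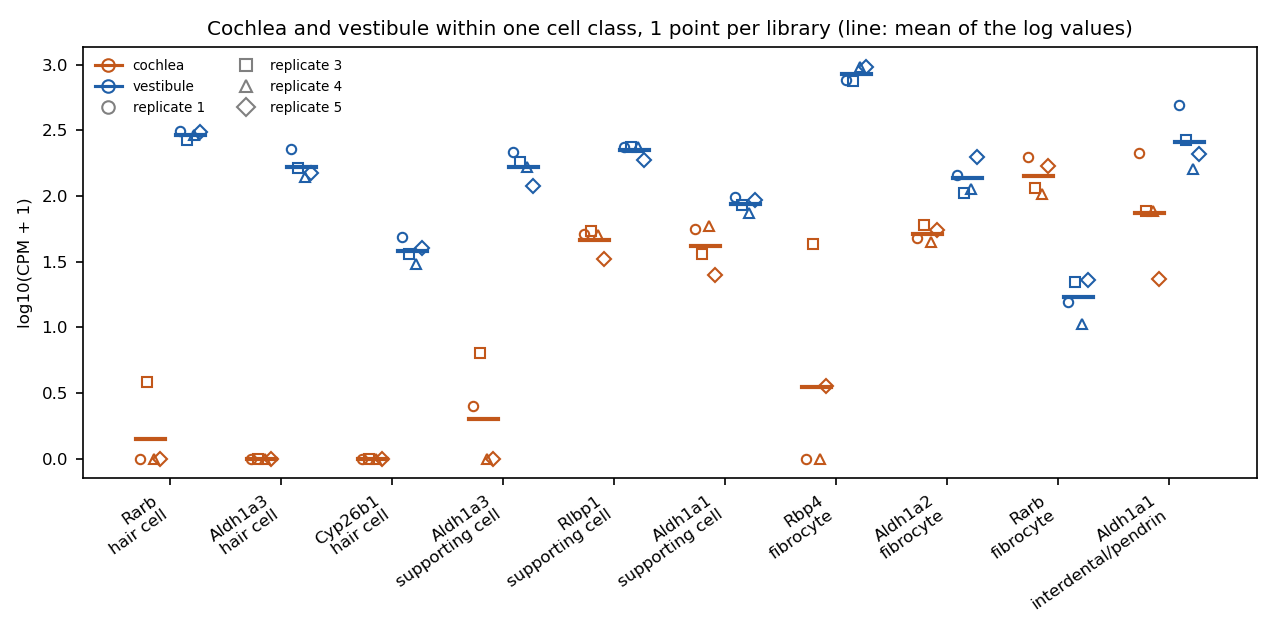
Levels of 10 gene and class pairs in the 2 organs, as log10(CPM + 1) within one cell class, with 1 symbol per library (orange cochlea, blue vestibule) and a line at the mean of the log values; the erythroid comparison of Rbp4 is left out. Rarb in fibrocytes is lower in the vestibule and the other pairs are higher there, and the libraries of the 2 organs overlap for Aldh1a1 in interdental or pendrin epithelial cells.

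The genes outside the list with the most similar pattern were found by Pearson correlation of log2(CPM + 1) over the 39 group means, among 16087 genes. Groups of one organ share libraries, so these values are a description. Rarb was most like Rab36 (0.86), Bbs2 (0.82) and Fam149a (0.81). Aldh1a3 was most like Arxes2 (0.85), Prox1 (0.82) and Prox1os (0.82), and Cyp26b1 like Colca2 (0.79), Prkg1 (0.70) and Rgs9 (0.68). Rbp4 was most like Spink8 (0.90), Sox8 (0.87) and Zic1 (0.86), and Rlbp1 like Actn4, Gas2 and Otogl (0.82 each). Aldh1a1 was most like Col18a1 (0.72), Prss23 (0.71) and BC067074 (0.69), and Aldh1a2 like Pcca (0.86), Zic5 (0.83) and 4930594M22Rik (0.82). Crabp1 was most like Pmch (0.64), Klhl35 (0.61) and Slc35f3 (0.56), at levels too low to rank.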

How the data were processed

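Single-cell libraries (10x v3.1) of cochlea and vestibule were deposited as raw UMI counts per gene and cell, not normalized. Per the labels and file headers the authors aligned reads to mm10 with Cell Ranger, version 5.0.1 in the headers of replicates 1 and 2 and 6.1.2 in the others. A cell was kept if it had 200 or more genes, 1000 or more UMIs and less than 25% mitochondrial UMIs. Cells were clustered per organ with Seurat 5.3.0 (2000 variable genes without the retinoid list, 30 components, resolution 1, no integration). Doublets were not removed. Class names needed 3 enriched markers, and vestibular hair cells were named type I or type II from Adam11 and Sox2. The naming thresholds were set after the clusters were seen. Counts were summed per library and class (10 cells or more). Tests used edgeR 4.0.16 (quasi-likelihood, TMM, filterByExpr; R 4.3.3), with Benjamini-Hochberg adjustment over all genes tested at 0.05. Scripts were tested on simulated data.

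Each of the 8 genes is named in every comparison, as are up to 5 genes of the retinoid list (54 of 55 in the tables) in each direction, and the 3 genes most alike. Of the list, 2 genes are not reported here and are left out of its counts. The genes and lists were chosen with earlier results of these data known. p-values measure the spread between pooled replicates. Intervals cover counting error only, and the limit for a count of 0 is 3 UMIs over the group. Type I and type II cells of one number come from one library (correlations of their deviations 0.285, 0.199, 0.256 and 0.245).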

Additional observations from a re-analysis of the deposited data

Results flagged for a closer look

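In 6 of 86 levels of 4 libraries tested, 1 library stood apart by Dixon's ratio of gap to range, a test that chance passes in about 1 of 20 groups. Replicate 5 was low for Rlbp1 in vestibular supporting cells (ratio 0.966; 185.5 against 234.1 to 235.8 CPM) and for Aldh1a1 in cochlear cells led by Emcn, Slco1c1 and Epha3 (0.955; 6.11 against 19.2 to 19.8 CPM). Replicate 1 was high for Aldh1a3 in vestibular cells led by Tectb, Slitrk6 and Corin (0.917; 227.4 against 137.7 to 145.2 CPM) and for Rarb in those led by Lum, Slc22a2 and Slc7a11 (0.866; 43.4 against 21.4 to 24.3 CPM). Replicate 3 was high for Rbp4 in cochlear fibrocytes (0.939; 42.4 against 0 to 2.57 CPM) and in cochlear cells led by Prl, Otos and Gm525 (ratio 1; 64.3 against 0 CPM).

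Some organ differences ran in opposite directions in 2 classes. These pairs were picked for their opposite signs, so the difference of their log2 fold changes, fitted as an interaction in edgeR, is given as a size without a p. Rarb differed by 9.82 (SE 0.55) between hair cells and fibrocytes, a size that rests on 1 Rarb UMI in cochlear hair cells. Dhrs3, with 2 UMIs in cochlear hair cells, differed by 6.84 between hair cells and fibrocytes and by 6.75 between hair cells and roof epithelial cells. Between supporting cells and these 2 classes Dhrs3 differed by 3.05 and 3.14. Rdh10 was higher in vestibular supporting cells and lower in vestibular hair cells, a difference of 4.2.

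In groups found in too few libraries for the comparisons, and mainly in replicate 3, the lower Poisson limit of 3 levels lay above the mean of every group of that organ described in the report. Crabp1 was at 102 CPM (95% Poisson interval 77.7 to 132) in 134 vestibular cells led by Bpifa1, Wfdc18 and Cxcl5, from 59 UMIs. It was at 15.5 CPM (7.45 to 28.6) in 108 vestibular cells led by AU040972, Ly6a and Ccdc153. Rlbp1 was at 202 CPM (167 to 244) in 138 cochlear melanocytes, of which 130 came from replicate 3. Other levels there did not clear that limit but were high: Aldh1a1 at 499 CPM (446 to 557) in the cells led by AU040972, and Cyp26b1 at 49.1 (32.1 to 72.0, 26 UMIs) and Rarb at 88.8 (65.2 to 118) in 178 cochlear cells led by Mgp, Slc47a1 and Slc4a10.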

How the results depend on the processing

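No result reversed under the 15 alternatives tried. The counts of calls of the 8 genes in this section include genes that passed the filter wholly or largely through 1 organ. The direction of those calls was wholly or largely set by the filter, so their persistence is not a test of them. Without a filter on low counts, calls between organs went from 6652 to 11046 (fibrocyte 1616 to 2623, supporting 2382 to 3598, interdental or pendrin 311 to 804, roof 138 to 412, erythroid 239 to 514, macrophage 20 to 205, T or NK 0 to 17) and calls of the 8 genes from 11 to 24. Under 10% mitochondrial UMIs they were 4336 in all (hair cell 1093, supporting 1265, macrophage 5), Rlbp1 in vestibular supporting cells was at 190.9 CPM, and Aldh1a1 in supporting cells had an adjusted p of 0.0568. DESeq2 called 135 genes in erythroid cells. Leaving out cells of over 3 times the median UMIs gave 1413 in supporting cells, and a minimum of 20 cells gave 45 in macrophages, while erythroid and T or NK cells could not be fitted. Keeping the set-aside hair cells, an alternative chosen after seeing the data, gave 3223 in hair cells.

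Leaving out 1 replicate number at a time gave 4105 to 8560 calls in all, 0 to 4 in T or NK cells, 32 to 864 in erythroid cells, 1160 to 2189 in fibrocytes, 1176 to 2230 in hair cells, 243 to 324 in interdental or pendrin epithelial cells, 5 to 80 in macrophages, 56 to 187 in roof epithelial cells, 1429 to 2686 in supporting cells, 849 to 1515 in type I against type II and 9 to 15 calls of the 8 genes. The lowest total, 4105, and the lowest type I against type II count, 849, were without replicate 3. The cause of these shifts was not tested.

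The organs' replicate numbers were not taken as pairs, since no class with 4 pairs had every correlation of same-numbered libraries over 0.1 (hair cells 0.0353 to 0.111, supporting cells 0.0677 to 0.327, interdental or pendrin cells 0.0518 to 0.186). With the number as a replicate block, calls were 3027 in supporting cells, 1620 in hair cells, 433 in erythroid cells, 11 in macrophages and 15 in T or NK cells. For type I against type II cells, paired by library, the block gave 1990 calls against 1399. It changed no call of the 8 genes, including calls whose direction was set by the filter.

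Thin cochlear hair cell sums (111 cells) limit what can be seen there: 0 UMIs allow up to 5.12 CPM.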
